A study of Arabidopsis thaliana with 6 samples.

Results

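HSA32 (AT4G21320), ATHSP22.0 (AT4G10250) and AT5G48570 are 3 genes of the Arabidopsis thaliana heat shock response. They were followed here in wild-type seedlings and in mutants of genes for cytosolic iron-sulphur (Fe-S) cluster assembly. The 3 genes were chosen by gene identity. The rule has no measured value in it but was written with earlier results of these data known. Each is named by exactly 1 probe set, a group of short probes for 1 transcript, and the 3 genes stand among 13355 named on the array. Whole seedlings of the Col-0 background were frozen at 2 weeks after imbibition from MS plates, and the labels name no heat treatment for any group. Each of the genotypes wild type, nar1-4 and nbp35-3 has 2 arrays, numbered 1 and 2 in the sample titles, and the design text calls these biological replicates. Less RNA was labelled for 3 samples, which the labels name by codes that are not tied to a genotype. The labels write both mutants with the sign "/-" and do not explain it, and the source name of the nbp35-3 seedlings carries another allele number, nbp35-4, so the title and the genotype field were followed. No cell type was sorted, and in whole seedlings fewer cells of a type and less RNA per cell cannot be told apart.

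When proteins unfold in the heat, class A heat shock factors switch on genes whose products hold, refold or dissolve the damaged proteins. Small heat shock proteins bind unfolding clients without using ATP, the HSP70 and HSP90 machines refold them with the help of co-chaperones, and HSP101 pulls apart aggregates. HSA32 is a plant protein needed to keep up acquired thermotolerance over the recovery after a first heat treatment, and it acts together with HSP101. ATHSP22.0 is the small heat shock protein of the endoplasmic reticulum. AT5G48570, also called ROF2 or FKBP65, is a heat-induced peptidyl-prolyl isomerase of the FKBP family that binds its relative ROF1 and reduces the activity of the heat shock factor HSFA2.

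Values are log2 expression after RMA, so a difference of 1 is a 2-fold difference. The arrays grouped by their number more than by genotype. Arrays of different genotype and the same number correlated across probe sets at 0.9873 to 0.9943, and the 2 arrays of 1 genotype at 0.9679 to 0.9698. What a number shares is not in the labels, so each difference is also given within number 1 and within number 2. The mutated genes NAR1 and NBP35 were not followed here. Leaf and root tissue showed in each array, with the Rubisco activase gene RCA at 13.37 to 13.55 and the root beta-glucosidase gene PYK10 at 11.70 to 12.17, while the seed genes M17 and M10 were low. M17 stood at 3.99 in nbp35-3 replicate 2, the array with the lowest AT5G48570, and at 2.18 to 2.71 on the others, and the summed linear signal of both seed genes was 23.9 there and at most 13.2 on the others. The part of this in the results was not tested.

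HSA32 stood at 6.11 and 5.69 in wild type (numbers 1 and 2), at 5.58 and 5.27 in nar1-4, and at 6.49 and 5.47 in nbp35-3. Both nar1-4 arrays lay below both wild-type arrays, and the nbp35-3 arrays overlapped those of the other genotypes. Both nar1-4 arrays were below both wild-type arrays in 11.4% of all probe sets, so this arrangement is common on these arrays. In order of their means, HSA32 was at 5.98 ± 0.72 (SD, n = 2) in nbp35-3, 5.90 ± 0.30 in wild type and 5.42 ± 0.22 in nar1-4. The 2 highest means differed by less than their spread, and wild type and nar1-4 by more than either SD. Number 2 was lower than number 1 in every genotype, by -0.42 in wild type, -0.32 in nar1-4 and -1.01 in nbp35-3.

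ATHSP22.0 gave low values on all arrays, above at most 32.62% of the probe sets of an array. It stood at 3.32 and 4.22 in wild type, at 3.21 and 3.36 in nar1-4, and at 3.49 and 3.33 in nbp35-3. The wild-type array of number 2 stood apart, and the other 5 arrays lay under the first quartile of their own values, which was 3.48 to 3.58. The means were 3.77 ± 0.64 (SD, n = 2) in wild type, 3.41 ± 0.11 in nbp35-3 and 3.28 ± 0.11 in nar1-4, so wild type differed from nbp35-3 by less than its own SD, and the mutants differed from each other by 0.12. The transcript of this endoplasmic reticulum chaperone was thus near the low end of the scale on 5 of the 6 arrays.

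AT5G48570 stood at 5.78 and 6.24 in wild type, at 6.19 and 5.60 in nar1-4, and at 6.67 and 5.11 in nbp35-3. The highest and the lowest of the 6 arrays were therefore the 2 arrays of nbp35-3, 2.96-fold apart. The means hid this, at 6.01 ± 0.33 (SD, n = 2) in wild type, 5.89 ± 0.42 in nar1-4 and 5.89 ± 1.11 in nbp35-3, and no pair of means differed by more than its spread. From number 1 to number 2 the difference was 0.46 in wild type, -0.59 in nar1-4 and -1.56 in nbp35-3. The order of the genotypes was thus opposite in the 2 numbers, rising from wild type through nar1-4 to nbp35-3 in number 1 and in the reverse order in number 2. The span over the 6 arrays, 1.56, was wider than that of 94.04% of probe sets, against 89.01% for HSA32 (span 1.22) and 83.89% for ATHSP22.0 (span 1.02).

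**Figure D1:**
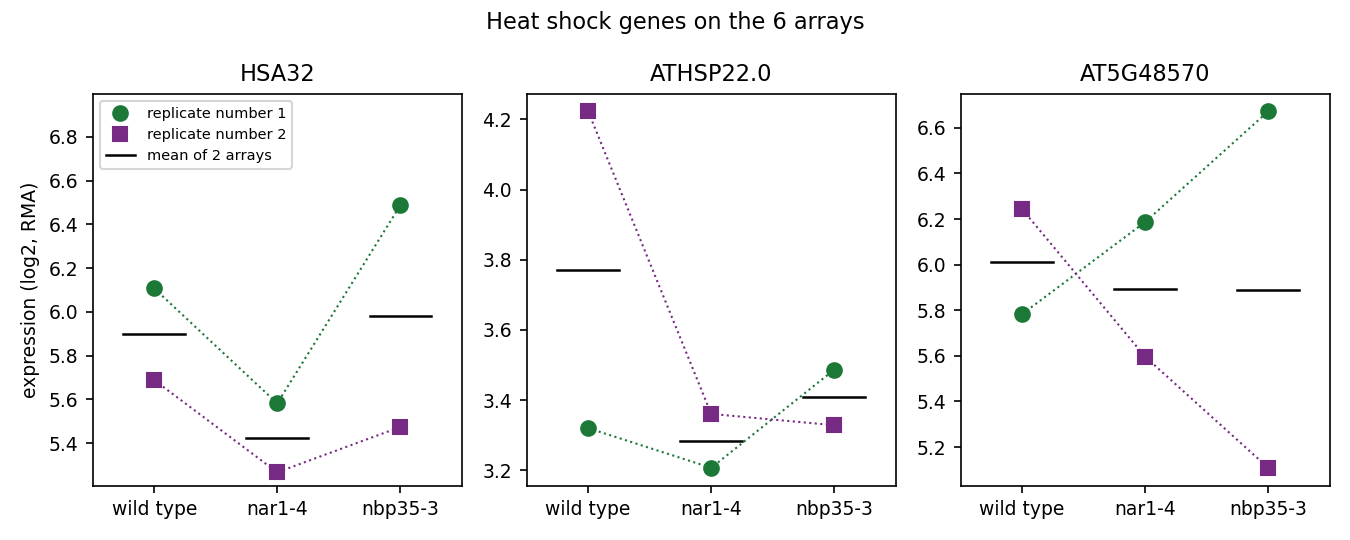
Log2 expression (RMA, vertical axis) of HSA32, ATHSP22.0 and AT5G48570 in wild type, nar1-4 and nbp35-3; circles are arrays of replicate number 1, squares those of number 2, dotted lines join arrays of 1 number, and bars are means of 2 arrays. The HSA32 lines are lowest in nar1-4 in both numbers, ATHSP22.0 has 1 array above the others at 4.22, and the AT5G48570 lines cross. The vertical scales differ between panels.

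The first question was how these heat shock genes stood in nar1-4 relative to wild type. The mean of HSA32 was 1.39-fold lower in nar1-4, a log2 difference of -0.47 ± 0.38 (SE). It was -0.53 in number 1 and -0.42 in number 2, similar amounts, and its size exceeded that of 96.27% of probe sets. ATHSP22.0 differed by -0.49 ± 0.32, nearly all of it within number 2 (-0.11 and -0.86), where the wild-type array was the high one. Without that array the ATHSP22.0 difference was -0.04. AT5G48570 differed by -0.12 ± 0.56, with 0.40 within number 1 and -0.65 within number 2.

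In limma, with p-values adjusted after Benjamini and Hochberg over 22746 probe sets, 0 of the 3 genes passed (adjusted p = 0.9999 for each). The share of all probe sets that passed was 0%, and 196 had an unadjusted p under 0.05. With the replicate number as a block 0 passed as well, 1009 had an unadjusted p under 0.05, and HSA32 had the smallest unadjusted p of the 3 genes at 0.0541 (limma adjusted p = 0.9791, 95% interval of the difference -0.96 to 0.01). That interval includes 0. For ATHSP22.0 the interval with the block was -1.12 to 0.15, and for AT5G48570 it was -1.22 to 0.97.

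In nbp35-3 against wild type, the difference of each of the 3 genes had opposite signs in the 2 numbers. AT5G48570 was 1.85-fold the wild-type level within number 1 (log2 0.89) and 0.46-fold within number 2 (log2 -1.13). The gap between these differences, -2.02, was larger in size than that of 99.61% of probe sets. HSA32 differed by 0.38 within number 1 and -0.21 within number 2, and ATHSP22.0 by 0.17 and -0.89. Over all probe sets the signs were opposite in 49.38%, so opposite signs alone are no particular feature of these genes.

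Averaged over the numbers, the nbp35-3 differences were 0.08 ± 0.38 (SE) for HSA32, -0.36 ± 0.32 for ATHSP22.0 and -0.12 ± 0.56 for AT5G48570. None passed in limma (adjusted p = 1 for each), where again 0% of probe sets passed and 139 had an unadjusted p under 0.05. With the replicate block the adjusted p was 0.9744, 0.9309 and 0.9837 in the same order, 0 probe sets passed and 1076 had an unadjusted p under 0.05. The averages rest on single arrays. Without nbp35-3 replicate 1 the HSA32 difference was -0.42 and that of AT5G48570 -0.90, and without nbp35-3 replicate 2 they were 0.59 and 0.66. Without wild type replicate 2 the differences were -0.13 for HSA32, 0.09 for ATHSP22.0 and 0.11 for AT5G48570.

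Of 5 root markers 4 were measured, and 3 of them had opposite signs in the 2 numbers in nbp35-3 against wild type. The same held for HSA32, ATHSP22.0 and AT5G48570 and for 49.38% of all probe sets. None of the 4 passed in limma. PRX72 (AT5G66390), a root peroxidase gene, differed between nbp35-3 and wild type by 0.56 within number 1 and -0.38 within number 2, the root hair expansin genes EXPA7 by 0.65 and -0.52 and EXPA18 by 0.80 and -0.15, and PYK10, with no change of sign, by -0.20 and -0.13. The summed linear signal of the 4 markers, most of it PYK10, was 4361 and 4719 in wild type, 3522 and 4791 in nar1-4, and 3952 and 4288 in nbp35-3. Like PYK10 itself, the sum was lower in nbp35-3 than in wild type in both numbers. AGL24, the 1 measured flowering gene, had a mean difference from wild type of -0.74 in nar1-4 and -0.31 in nbp35-3, and it did not pass in limma (adjusted p = 0.9999 and 1). The part of organ shares in the heat shock values was not tested.

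Set against each other, the mutants had their widest difference of the 3 genes in HSA32, whose mean was 1.47-fold higher in nbp35-3 (log2 0.56 ± 0.38, SE). The HSA32 difference was 0.90 within number 1 and 0.21 within number 2, the same sign in both. ATHSP22.0 differed by 0.12 ± 0.32 (0.28 and -0.03) and AT5G48570 by -0.0009 ± 0.56 (0.49 and -0.49), a mean near 0 that averages opposite differences of nearly equal size. None of the 3 passed in limma (adjusted p = 1 for each), 0% of probe sets passed, and 217 had an unadjusted p under 0.05. With the replicate block, where 0 probe sets passed and 1263 had an unadjusted p under 0.05, the interval of the HSA32 difference was 0.07 to 1.04 (unadjusted p = 0.0313, limma adjusted p = 0.8596). Without nbp35-3 replicate 1 the HSA32 difference was 0.05. The 3 comparisons share their arrays, 2 by 2, so they are not separate evidence.

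**Figure D2:**
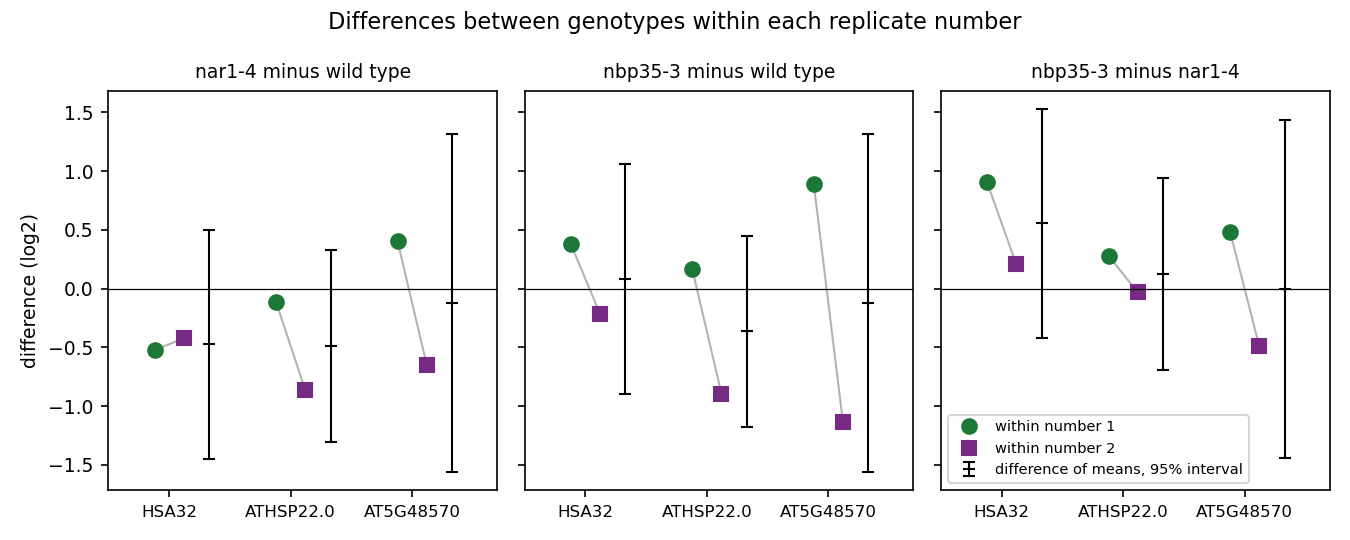
Differences in log2 expression (vertical axis) of the 3 genes for nar1-4 and nbp35-3 against wild type and for nbp35-3 against nar1-4; circles are differences within replicate number 1, squares within number 2, and black bars the difference of means with its 95% interval from limma without a block. For nar1-4 against wild type HSA32 shows -0.53 and -0.42, and for nbp35-3 against wild type AT5G48570 shows 0.89 and -1.13.

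The number of the array was itself compared, with 1 mean per genotype kept in the fit. HSA32 differed by -0.58 ± 0.16 between number 2 and number 1 (SE, 95% interval -0.98 to -0.19) and just missed the threshold (limma adjusted p = 0.0504). In this comparison 23.4% of probe sets passed, 12.3% higher and 11.2% lower in number 2, so a gene near the threshold is not unusual. HSA32 passed under 6 of 14 other settings, with adjusted p from 0.0236, when the arrays were centred on their medians, to 0.1204, when either wild-type array was left out. The HSA32 values of number 1, 5.58 to 6.49, overlapped those of number 2, 5.27 to 5.69. AT5G48570 differed by -0.56 ± 0.36 (adjusted p = 0.32) and ATHSP22.0 by 0.30 ± 0.21 (adjusted p = 0.3637). Leaving out either wild-type array brought the ATHSP22.0 difference to -0.0023. The clock- and cold-regulated gene COR27 differed by -5.17 between the same numbers, from 8.86 to 9.33 in number 1 to 3.61 to 4.16 in number 2, and GI, an evening gene of the clock, by -0.15. The part of time of day or temperature was not tested.

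Around the 3 genes, 6 lists of the heat and chaperone response held 122 loci, of which 30 have a probe set that names no other gene. Of these 30, 16 are paired by the gene table with the name they were listed under. The other 14 are given by locus, with no name or role. The 25 listed heat shock factors and related regulators, HSP101, ROF1 and the listed HSP90 genes are not analysed here, since no probe set used here names them alone. Probe sets without a gene name in the annotation may still cover them.

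Among co-chaperones, the HSP70 and HSP90 helpers with the widest swings followed the number of the array. Hop3, a heat-induced protein that links HSP70 to HSP90, stood at 6.79 and 5.64 in wild type, 6.37 and 5.07 in nar1-4, and 7.70 and 4.37 in nbp35-3. Fes1A, a nucleotide exchange factor of HSP70 needed for thermotolerance, stood at 7.25 and 5.82, 6.92 and 5.60, and 7.94 and 5.89 in the same order. Each number 1 array of both genes was above every number 2 array, and nbp35-3 replicate 1 was the highest. From number 1 to number 2 both fell, with a difference of -1.93 ± 0.43 for Hop3 (SE, limma adjusted p = 0.0282) and of -1.60 ± 0.16 for Fes1A (adjusted p = 0.0035). SGT1A, an HSP90 co-chaperone also known from disease resistance, fell too, with -0.59 ± 0.14 (adjusted p = 0.0347).

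Of the 8 measured co-chaperone genes that are paired with their listed name, AT5G48570 included, 3 fell in number 2, 0 rose and 5 did not pass, where 11.2% of all probe sets fell and 12.3% rose, with a median of -0.42 beside -0.01 over all probe sets. Hop1 and Hop2, the constitutive relatives of Hop3, differed by -0.23 and -0.26, SQN, a cyclophilin that works with HSP90, by -0.28, and BOB1, a NudC-domain protein needed for normal growth in heat, by 0.01. Against wild type, 0 of the 8 passed in nar1-4 and 0 in nbp35-3. The 8 means were all lower in nar1-4 than in wild type, 7 of them within both numbers. Their median was -0.15 beside -0.01 over all probe sets, of which 51.6% were lower. AT5G48570 was the exception within the numbers. Some of these differences were close to 0, with Hop2 at -0.03 and -0.003 within numbers 1 and 2. The share of all probe sets lower within both numbers was not counted, and 45.67% had opposite signs. The 2 listed loci without a paired name, AT3G55520 and AT4G02450, had higher means in nar1-4, by 0.09 and 0.05, and with them the median was -0.11. In nbp35-3 the median was -0.09, with 0.08 within number 1 and -0.12 within number 2. Hop3 showed the widest reversal there, at 0.92 and -1.27, in the same direction as AT5G48570, while Fes1A was higher in both numbers (0.69 and 0.08).

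Of the 11 measured loci listed as small heat shock proteins, 0 passed in any comparison of genotypes, and 1, AT5G51440, rose in number 2 (0.95 ± 0.21, SE, limma adjusted p = 0.0295), where 12.3% of all probe sets rose. In 5 of the 11, ATHSP22.0 among them, the highest array was wild type replicate 2, an array that was the highest for 19.2% of all probe sets. AT2G29500 stood at 6.14 on this array and at 3.55 to 4.07 on the other 5, AT1G52560 at 3.72 and 2.51 to 2.74, and AT5G37670 at 5.22 and 4.08 to 4.58. ATHSP22.0 thus shared its highest array with them.

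In 2 other loci of the small heat shock protein list the highest array was that of AT5G48570. AT1G53540 stood at 6.21 and 6.59 in wild type, 5.63 and 2.83 in nar1-4, and 8.12 and 3.08 in nbp35-3, and AT1G54050 at 6.68 and 7.51, 6.64 and 6.58, and 7.54 and 6.01. For both this was nbp35-3 replicate 1. Over the 6 arrays r with AT5G48570 was 0.8903 for AT1G53540 and 0.8999 for AT1G54050, but relative to the mean of each number AT1G53540 was closer to ATHSP22.0 (0.9541) than to AT5G48570 (0.8361). Against wild type, AT1G53540 differed in nar1-4 by -2.17 ± 1.83 (SE), with -0.58 and -3.76 within the numbers, and in nbp35-3 by -0.80 ± 1.83, with 1.91 and -3.51. Its values in number 2 of both mutants lay under the first quartile of their arrays, so the sizes of -3.76 and -3.51 are uncertain. The list's median was -0.48 in nar1-4 (-0.03 and -0.64 within numbers 1 and 2) and -0.31 in nbp35-3 (0.17 and -0.89). In nar1-4 6 of the 11 were lower within both numbers and 3 were higher within both. Over all probe sets the signs were opposite in 45.67% in nar1-4, and the share lower within both numbers was not counted. Among the lower ones, AT1G52560 and AT1G54050 each differed by only -0.03 within number 1. The higher ones were AT5G51440 (0.72 and 0.49), AT4G21870 (0.006 and 0.97) and AT2G19310 (0.13 and 0.10). In nbp35-3 7 of the 11 were higher within number 1 and lower within number 2, and 0 the other way. Over all probe sets the signs were opposite in 49.38%, and the share in this direction was not counted. The 11 loci share the same arrays, and AT1G52560 and ATHSP22.0 lay under the first quartile on 5 of the 6.

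Other chaperones and protective proteins were measured by few genes. TIL, a temperature-induced lipocalin listed with HSA32, differed from wild type by -0.11 in nar1-4 and -0.03 in nbp35-3. The cytosolic HSP70 gene Hsp70-2 differed by -0.09 and -0.22 in the 2 mutants, and by 0.52 ± 0.14 between numbers (SE, limma adjusted p = 0.0507). The other measured locus of that list, AT3G09440, rose by 1.33 ± 0.10 in number 2 (adjusted p = 0.0018), and differed by 0.07 in nar1-4 and -0.33 in nbp35-3. In the endoplasmic reticulum, where ATHSP22.0 acts, the HSP40 gene ATERDJ3B rose by 0.83 ± 0.12 in number 2 (adjusted p = 0.0079) and BZIP28, a transcription factor of the unfolded protein response, fell by 0.45 ± 0.11 (adjusted p = 0.0396). The calreticulin gene CRT1b differed by 0.34 and BZIP60, another factor of that response, by -0.34, and neither passed. Against wild type 0 of the 4 named genes of this compartment passed in either mutant, with medians of -0.07 in nar1-4 and -0.02 in nbp35-3. BZIP60 had the widest difference of the 4 in nar1-4, at 0.35 ± 0.25, with 0.29 and 0.42 within the numbers.

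Over the 16 heat and chaperone genes paired with their listed name, nbp35-3 replicate 1 was the highest array for 7 (43.8%), against 18.8% of all probe sets. Over all 30 loci it was the highest for 9 (30.0%), and wild type replicate 2 was the highest for 10 (33.3%), against 19.2% of all probe sets. The 7 genes were HSA32, AT5G48570, Hop2, Hop3, SQN, Fes1A and SGT1A. All but HSA32 come from the co-chaperone list. Hop2 was nearly tied, at 8.084 in nbp35-3 replicate 1 and 8.080 in wild type replicate 1. Between numbers 1 of the 16 rose, 4 fell and 11 did not pass, and of all 30 loci 3 rose and 4 fell, a share near the 23.4% of all probe sets that passed. The genes share arrays, so these counts describe 6 libraries and not separate events.

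**Figure D3:**
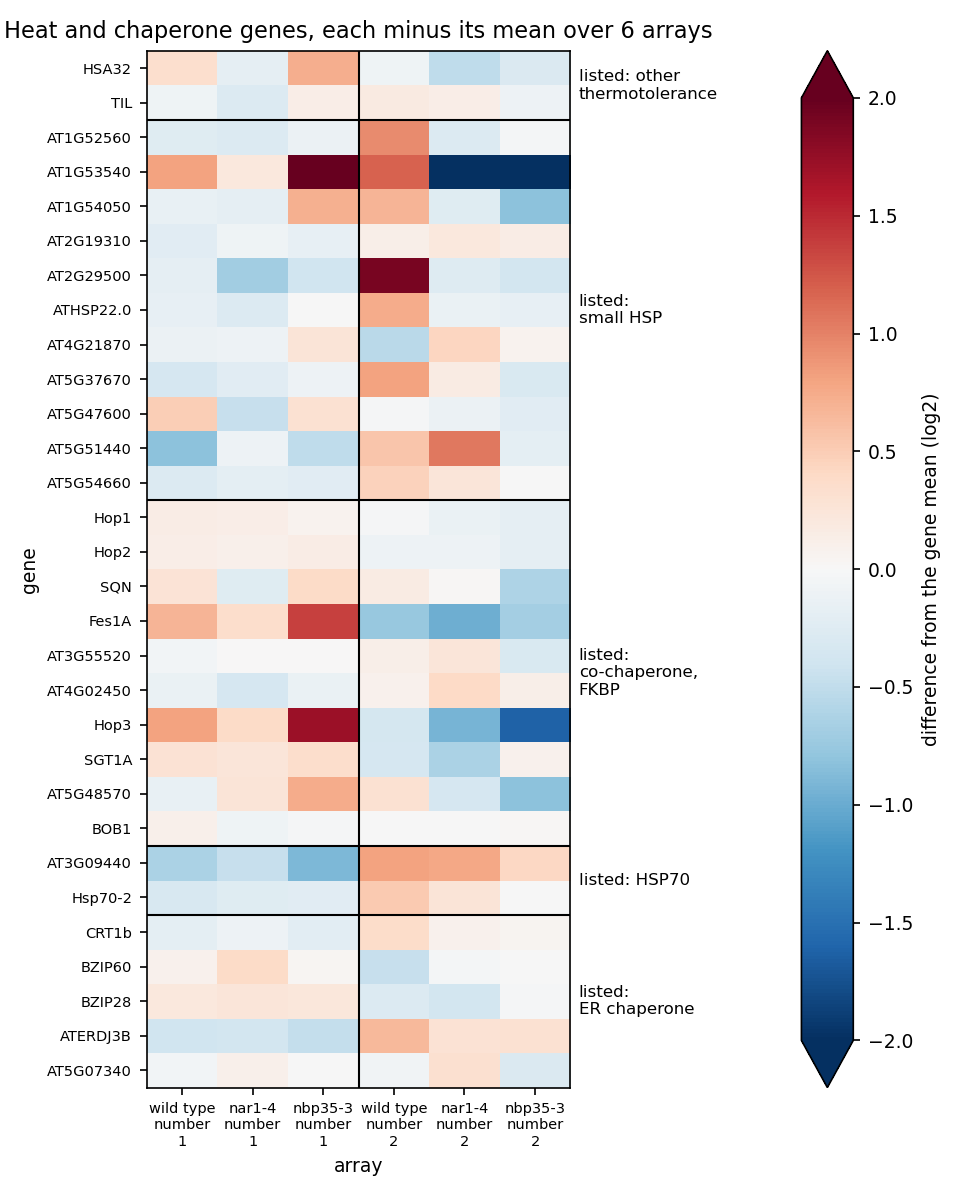
Log2 expression of 30 heat and chaperone genes (rows) on the 6 arrays (columns, number 1 left and number 2 right), each minus the mean of the gene over the arrays; red is above and blue below that mean, colours end at 2 in either direction, and side labels give the list a gene was written into. HSA32, AT5G48570, Fes1A, Hop3 and AT1G53540 are reddest in nbp35-3 number 1, while ATHSP22.0, AT2G29500, AT1G52560 and AT5G37670 are reddest in wild type number 2.

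**Figure D4:**
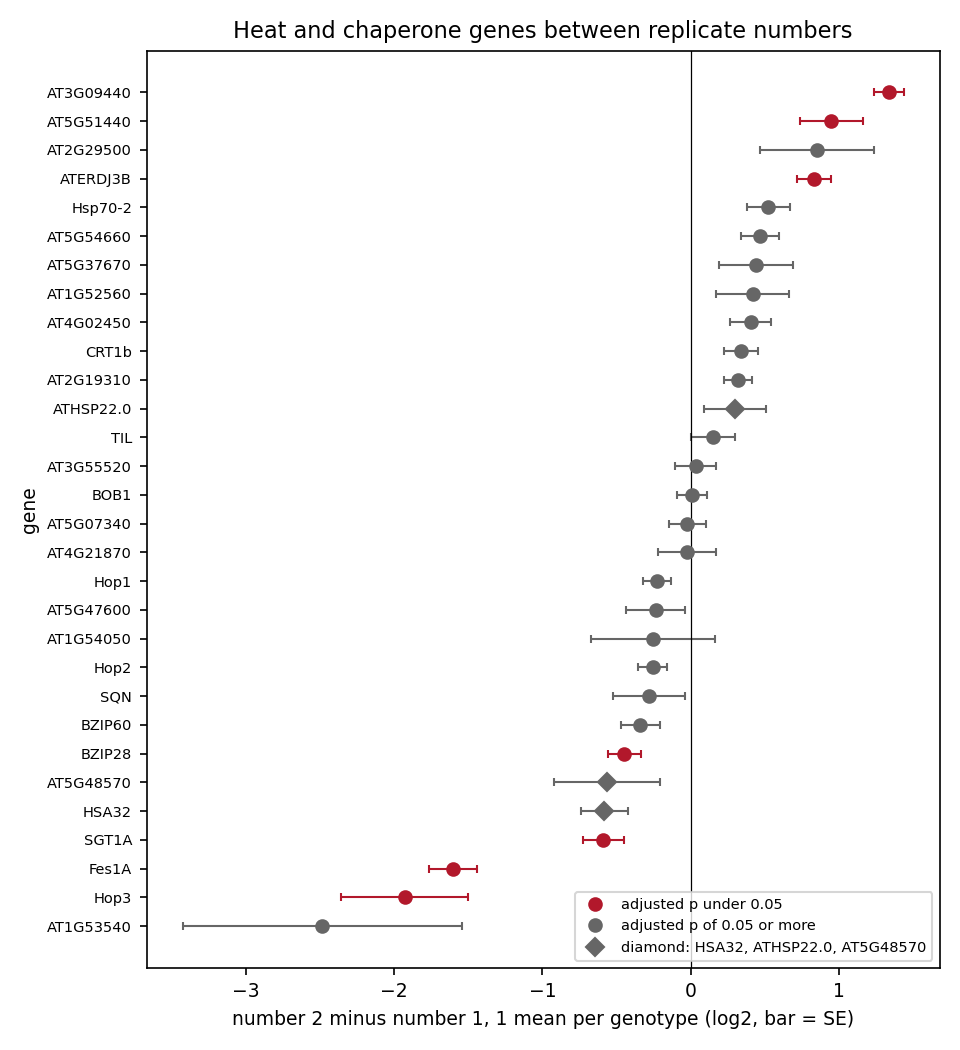
Difference in log2 expression between number 2 and number 1 (horizontal axis, 1 mean per genotype, bars are SE) for the same 30 genes, with diamonds for HSA32, ATHSP22.0 and AT5G48570 and red for limma adjusted p under 0.05. Of the 30, 3 rose and 4 fell, near the 23.4% of all probe sets that passed, and the diamonds are not among them.

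The genes most like each of the 3 were found by Pearson's r over the 6 arrays, among 1903 probe sets that name 1 gene and span at least 1. The arrays share number and genotype, so r is a description of likeness. For HSA32 they were AT2G47540 (r = 0.9973), AT5G59530 (0.988) and AT5G62340 (0.9826). AT2G47540 stood at 5.53 and 5.03 in wild type, 4.91 and 4.62 in nar1-4, and 5.82 and 4.80 in nbp35-3, the same order of arrays as HSA32. For ATHSP22.0 they were AT3G25290 (0.9868), AT3G22540 (0.9794) and AT2G29500 (0.975), each highest in wild type replicate 2. ATHSP22.0 lay under the first quartile on the other 5 arrays, so its r with any gene rests largely on that array. For AT5G48570 they were AT5G49350 (0.9454), AT1G54540 (0.9437) and GSO1 (0.9426), a receptor kinase gene known from barrier formation in embryo and root.

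Over the 6 arrays the 3 genes had a lower r with each other than with these, which were picked for the highest r. That comparison therefore shows nothing about the 3 genes. HSA32 and AT5G48570 had r = 0.661, ATHSP22.0 and AT5G48570 had 0.3468, and HSA32 and ATHSP22.0 had 0.056, each over the 6 arrays. Relative to the mean of each number, r was 0.4511 for HSA32 and AT5G48570 and 0.8001 for ATHSP22.0 and AT5G48570, so their likeness depends on this scaling. An r of at least 0.9 was reached by 100 probe sets with HSA32, 20 with ATHSP22.0 and 10 with AT5G48570. Of the heat lists, Fes1A came closest to HSA32 (0.8969), AT2G29500 to ATHSP22.0, and AT1G54050 to AT5G48570 (0.8999). Likeness was also taken with each array relative to the mean of its number. The span of at least 1 was then required of the relative values, which left 514 probe sets to compare with HSA32. The closest to HSA32 were then AT5G59530 (0.9758), the root peroxidase gene PRX72 (AT5G66390, 0.9739) and AT3G29410 (0.9686). PRX72 stood at 7.23 and 6.85 in wild type, 6.52 and 6.49 in nar1-4, and 7.78 and 6.47 in nbp35-3. Both its nar1-4 arrays were below both wild-type arrays, as for HSA32 and for 11.4% of all probe sets. The other measured root markers differed in nar1-4 from wild type by -0.05 and -0.08 within numbers 1 and 2 (EXPA7), 0.07 and 0.22 (EXPA18), and -0.30 and 0.03 (PYK10).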

How the data were processed

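The authors' deposited values are log2 signals after RMA, per the submitters' processing notes, which name no version. They were used as they stand. From 22810 probe sets 64 controls were left out. Of the remaining 22746, 13513 name 1 gene in the platform annotation, 503 several and 8730 none, and 13436 matched a RefSeq locus (TAIR10.1), used for symbols only. Arrays have no read depth, and their number limits the precision.

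Genotypes, taken from sample titles, were compared with limma 3.58.1 (R 4.3.3; lmFit and eBayes, two-sided) over all 6 arrays with Benjamini-Hochberg adjustment and a threshold of 0.05. With 2 arrays against 2 an exact permutation test cannot go below 0.3333. Deviations of same-numbered arrays from their genotype means correlated at 0.6737 to 0.8144, and so values within each number and with the replicate block are given. The fit was tested on simulated data. The 3 genes, the gene lists and the tests were chosen with earlier results of these data known. Genes named are these 3, measured genes of the heat lists, the gene of each other list furthest from 0, and the 3 probe sets most like each gene; GI and the remaining organ markers (root, leaf, seed, flowering) were added after their values were seen. A locus kept a listed name only where the gene table pairs both; of several probe sets of a gene the brightest was used. A planned search for promoter motifs was not run, since no sequence was used here. Alternatives are given at the end.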

Additional observations from a re-analysis of the deposited data

Results flagged for a closer look

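Differences that had opposite signs in the 2 replicate numbers were singled out; each rests on 1 array a genotype in each number, and the difference between the numbers was not tested. In nbp35-3 against wild type, AT5G48570 differed by 0.89 within number 1 and -1.13 within number 2, ATHSP22.0 by 0.17 and -0.89, and HSA32 by 0.38 and -0.21. In nar1-4 against wild type, AT5G48570 differed by 0.40 and -0.65. In nbp35-3 against nar1-4, AT5G48570 differed by 0.49 and -0.49 and ATHSP22.0 by 0.28 and -0.03.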

How the results depend on the processing

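In the 3 comparisons of genotypes 0 probe sets passed under any alternative, the replicate block included, and the 3 genes stayed above the threshold. Leaving out each array in turn, the difference against wild type ranged for AT5G48570 from -0.42 to 0.17 in nar1-4 and from -0.90 to 0.66 in nbp35-3, and in nbp35-3 for HSA32 from -0.42 to 0.59 and for ATHSP22.0 from -0.82 to 0.0875. Between the mutants AT5G48570 ranged from -0.78 to 0.78, and it was 0.0163 with arrays centred on their medians and 0.0141 after quantile normalization. The HSA32 difference in nar1-4 kept its sign, from -0.68 without wild type replicate 2 to -0.26 without wild type replicate 1. Between numbers, HSA32 passed at -0.58 with a robust prior, without dim probe sets and with probe sets naming 1 gene, at -0.67 with centred arrays (-0.6729) and quantile normalization (-0.6706), and at -0.51 with array weights; the cause was not tested. ATHSP22.0 ranged from -0.0023 to 0.53 there when an array was left out. The number of probe sets past the threshold between numbers was 5325, 2778 with probe sets naming 1 gene only, where fewer are tested, and 1715 to 5816 when an array was left out, lowest without either nar1-4 array and 1959 without either wild-type array. ATHSP22.0 had no value without dim probe sets. By locus alone the median of the endoplasmic reticulum list in nbp35-3 was -0.08, against -0.02. The replicate block changed no call.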
